A study of Homo sapiens with 12 samples.

Results

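METTL16 and eIF3a were compared by the transcripts that came down with each of them in RNA immunoprecipitation sequencing (RIP-seq). In RIP-seq, an antibody recovers a protein together with its bound RNA, and the sequenced RNA is set against input RNA taken before the pull-down. All samples were HepG2 cells, a line derived from a human liver tumour. For METTL16, the cells overexpressed 3xFlag-METTL16 and a Flag antibody was used. For eIF3a, the cells overexpressed 3xFlag-eIF3a and the labels name an antibody against eIF3a itself, although the deposited lists carry the word flag. Transgene, antibody and protein therefore changed together and cannot be told apart. The cells were cross-linked with ultraviolet light, and no other treatment separates the groups. Each protein had 2 RIP samples, which the study calls biological replicates, so 4 of the 12 samples of the series were compared, each through its own peak list of RIP over input. The 2 lists of eIF3b, a further subunit of the same factor immunoprecipitated with the Flag antibody, took no part in choosing genes and served as a separate readout.

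METTL16 is a methyltransferase that places N6-methyladenosine on the U6 spliceosomal RNA and on hairpins in the MAT2A mRNA, and that also binds RNAs it does not methylate. eIF3a is the large scaffold subunit of eukaryotic initiation factor 3, the complex that sits on the small ribosomal subunit and helps to bring mRNAs to it. Some mRNAs also contact eIF3 directly, so that a pull-down of eIF3a can hold both transcripts under translation and transcripts bound by the factor itself.

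Genes were the unit of comparison. A METTL16-only gene carried a peak in both METTL16 lists and in neither eIF3a list, and an eIF3a-only gene the reverse. Of 10118 genes with a peak in any of the 4 lists, 452 were METTL16-only (4.47%), 798 were eIF3a-only (7.89%) and 2820 were in all 4 lists (27.9%). The remaining genes were found less regularly, for example 870 in a single METTL16 list and 1766 in a single eIF3a list with no peak of the other protein. Each of the lists shaped these counts. Without METTL16 replicate 1, the sets held 1129 METTL16-only and 1407 eIF3a-only genes, and without METTL16 replicate 2 they held 645 and 1167. Without eIF3a replicate 1 they held 1712 and 1197 genes, and without eIF3a replicate 2, 532 and 2165. A peak means enrichment over input, so the absence of a peak from a list is not the absence of the RNA from the pull-down. The read depth behind the lists is unknown.

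The peaks of the sets differed in their bases. To show this, the stretch around the centre of the best replicate 1 peak is printed for 3 genes of each set. These were the first genes by rank whose best peak lay in the coding sequence of 1 exon, ribosomal protein genes left out. All are read on the transcript strand of GRCh38, 5′ to 3′, and capitals mark bases also under a peak in replicate 2 of the same protein. The METTL16-only genes were EEF1A1 (the elongation factor that delivers aminoacyl-tRNA, chr6:73518758-73518848, minus strand), GPX1 (a glutathione peroxidase, chr3:49357509-49357658, minus strand) and LINGO1 (a leucine-rich repeat membrane protein of neurons, chr15:77615611-77615760, minus strand).
EEF1A1: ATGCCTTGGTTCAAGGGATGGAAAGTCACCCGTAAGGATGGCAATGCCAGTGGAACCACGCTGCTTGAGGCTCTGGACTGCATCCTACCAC
GPX1: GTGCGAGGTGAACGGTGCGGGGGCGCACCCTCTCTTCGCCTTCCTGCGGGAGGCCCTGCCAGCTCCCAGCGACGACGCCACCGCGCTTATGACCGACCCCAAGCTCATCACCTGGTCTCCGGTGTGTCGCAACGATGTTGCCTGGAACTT
LINGO1: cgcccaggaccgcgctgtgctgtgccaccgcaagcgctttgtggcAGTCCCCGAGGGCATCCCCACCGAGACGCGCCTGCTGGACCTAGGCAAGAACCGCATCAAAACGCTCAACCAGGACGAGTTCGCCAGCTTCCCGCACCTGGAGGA

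The eIF3a-only genes were ANKRD36 (an ankyrin repeat gene, chr2:97245352-97245501, plus strand), PDE4D (a phosphodiesterase that breaks down cyclic AMP, chr5:58974701-58974850, minus strand) and ZNF518A (a zinc finger gene, chr10:96160129-96160278, plus strand).
ANKRD36: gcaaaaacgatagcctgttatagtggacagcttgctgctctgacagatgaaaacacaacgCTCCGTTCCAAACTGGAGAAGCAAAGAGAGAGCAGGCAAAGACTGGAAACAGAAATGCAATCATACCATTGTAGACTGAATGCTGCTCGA
PDE4D: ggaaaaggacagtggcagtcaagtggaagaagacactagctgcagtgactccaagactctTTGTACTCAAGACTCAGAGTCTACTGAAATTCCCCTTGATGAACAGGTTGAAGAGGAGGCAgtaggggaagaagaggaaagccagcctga
ZNF518A: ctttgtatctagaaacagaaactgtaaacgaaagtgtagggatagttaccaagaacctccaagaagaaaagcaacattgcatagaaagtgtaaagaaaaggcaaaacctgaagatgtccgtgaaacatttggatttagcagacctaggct
The METTL16-only stretches were 54.9%, 66.0% and 66.0% GC, and the eIF3a-only stretches 45.3%, 48.7% and 38%. The replicates did not always mark the same bases. Of the 150 bases shown for ZNF518A, 0 lay under its peaks in eIF3a replicate 2, which fell elsewhere on the transcript. EEF1A1 and ANKRD36 have near-identical copies in the genome, so their reads may have been shared with them.

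The transcripts of the sets differed in length and base composition. METTL16-only genes had short, GC-rich transcripts, and eIF3a-only genes long, GC-poor ones. In GENCODE release 44, the canonical transcript of a METTL16-only gene had a median length of 1962 bases (quartiles 1344 and 2913, n = 448 genes with a match), and that of an eIF3a-only gene 4528 bases (quartiles 2987 and 6572, n = 793). The 2814 genes in all 4 lists had a median of 4462 bases and the 10069 genes with any peak 3535 bases, so the eIF3a-only genes were close to the shared genes in length and the METTL16-only genes were apart from both. Transcripts under 2000 bases made up 51.1% of the METTL16-only genes, 10.1% of the eIF3a-only genes and 20.9% of all genes with a peak.

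Both parts of the mRNA carried the length difference. The coding sequence was 1024 bases in the median METTL16-only gene and 1782 in the median eIF3a-only gene. The 3′ untranslated region was 629.5 and 1938 bases, and the number of exons 7 and 12.

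Median GC content of the transcript was 56.2% (quartiles 48.6% and 61.5%) in METTL16-only genes and 42.5% (quartiles 39.2% and 48.5%) in eIF3a-only genes. Genes in all 4 lists lay between them at 53.4%, and genes with any peak at 49.7%. More than 50% GC was found in 72.1% of METTL16-only and 21.6% of eIF3a-only transcripts, against 49.1% of all genes with a peak. On the log2 scale, the ratio of the median lengths, METTL16-only over eIF3a-only, was −1.21. It was −0.64 where only peaks of at least 4-fold enrichment were counted.

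**Figure D1:**
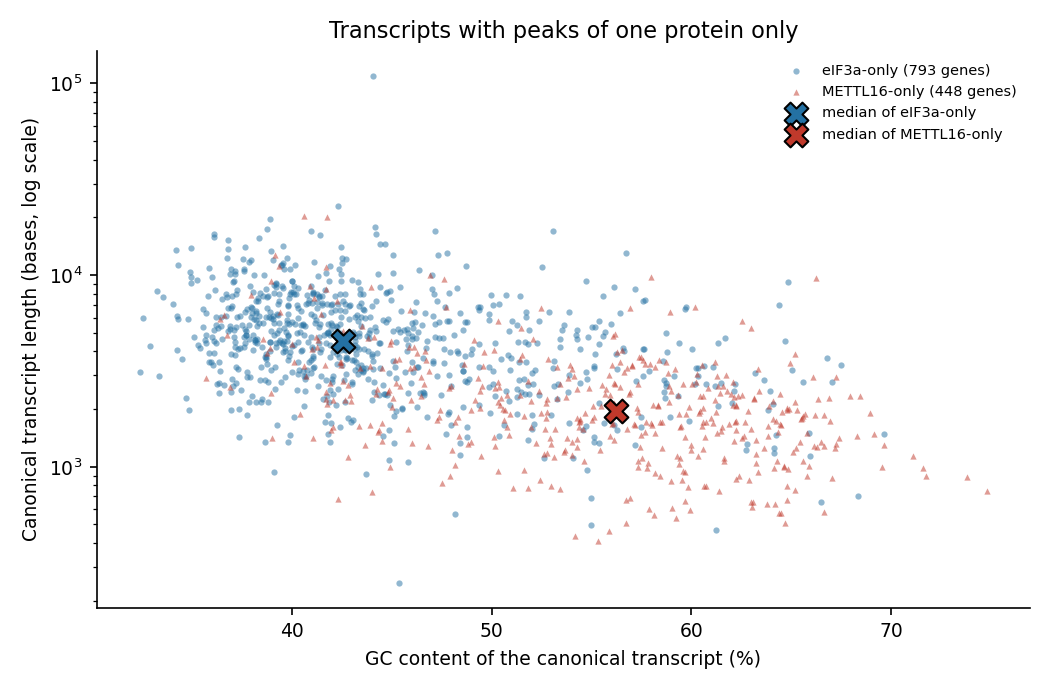
Each point is a METTL16-only (red triangles) or eIF3a-only (blue circles) gene, placed by the GC content (percent) and the length (bases, log scale) of its canonical transcript, and crosses mark the medians. The METTL16-only median lies at 56.2% GC and 1962 bases, the eIF3a-only median at 42.5% and 4528 bases, and the clouds overlap.

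Length and GC content are related to each other in human transcripts, so each was also compared within 3 equal groups by the other. Among the shortest genes, median GC was 58.1% for METTL16-only and 47.8% for eIF3a-only genes. In the middle group it was 51.5% and 43.2%, and among the longest genes 43.7% and 41.3%. Within groups by GC, METTL16-only transcripts were shorter each time, at 3407 against 5096 bases in the lowest group, 2067 against 3689 in the middle and 1706 against 2848 in the highest. Both differences were thus seen in all 3 groups by the other measure, and the GC difference was smallest among long transcripts.

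All genes with a peak were then ordered by transcript GC and cut into 10 equal groups. Across them, the share of METTL16-only genes went from 0.596% (95% Wilson interval 0.273 to 1.29) in the lowest group to 8.54% (6.97 to 10.4) in the highest. The share of eIF3a-only genes went the other way, from 15.6% (13.5 to 18.0) to 2.09% (1.37 to 3.17). Ordered by length, METTL16-only genes made up 12.7% of the shortest and 1.39% of the longest group, and eIF3a-only genes 2.88% and 12.5%. These intervals cover counting error over genes, which are not replicates of a pull-down.

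**Figure D2:**
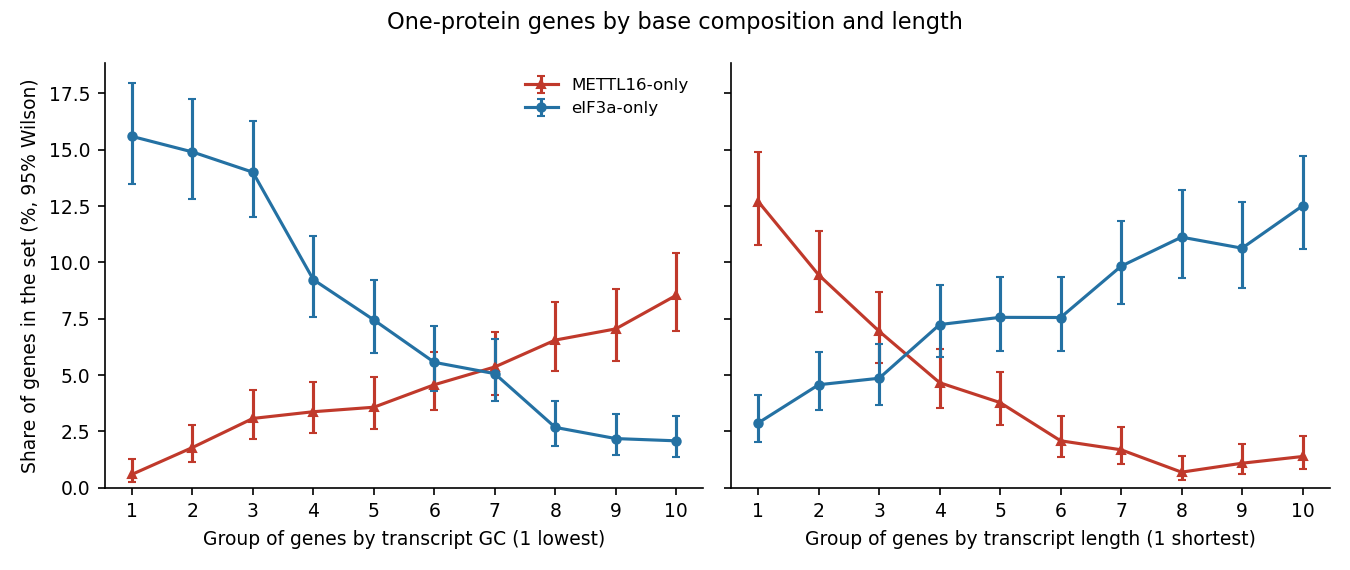
Share of genes that were METTL16-only (red) or eIF3a-only (blue), in percent with 95% Wilson intervals, for 10 equal groups of genes with a peak in any of the 4 lists, ordered by transcript GC (left) and by transcript length (right). The METTL16-only share rises from 0.596% to 8.54% with GC and the eIF3a-only share falls from 15.6% to 2.09%, and both turn round with length.

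Whole lists differed in the same way. Peaks averaged 59.0% and 60.8% GC for METTL16, and 53.7% and 53.1% for eIF3a, replicate 1 first. The groups did not overlap, with a difference of 6.49 percentage points between the means. The median transcript with a peak was 3660.5 and 3341 bases long for METTL16, and 3814.5 and 4432 for eIF3a, again without overlap. With 2 lists a side, the exact permutation test cannot go below p = 0.33, two-sided, which is the value both measures gave. The eIF3b lists did not fall on one side. Replicate 1 had a mean peak GC of 58.1% and replicate 2 one of 54.1%, the first near the METTL16 lists and the second near the eIF3a lists. The part of this in the comparison was not tested.

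Genes just outside the sets, with a peak in exactly 1 of the 4 lists, showed the same order. Median transcript GC was 51.3% for the 193 genes of METTL16 replicate 1 alone and 53.0% for the 677 genes of METTL16 replicate 2 alone. It was 43.5% for the 1367 genes of eIF3a replicate 1 alone and 44.9% for the 399 genes of eIF3a replicate 2 alone.

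Peaks on genes of one protein covered fewer bases than those on shared genes, which is given as a description, since the presence of peaks chose the genes. The METTL16-only genes had a median of 179 and 271.5 summed peak bases in METTL16 replicates 1 and 2, against 572 and 512 bases for the genes in all 4 lists. A single peak was called on 78.5% and 65.0% of them. The eIF3a-only genes had a median of 270 and 297 bases in the eIF3a lists, against 868 and 631 for the shared genes. Their median highest fold enrichment was 4.61 and 4.35, above the 4.25 and 3.35 of the shared genes in these lists. That of the METTL16-only genes in the METTL16 lists was 2.89 and 3.57, below the 5.03 and 5.00 of the shared genes. The METTL16-only set held genes at both ends of enrichment. In 136 of its genes (30.1%) the lower of the METTL16 folds was under 2, and in 12 (2.7%) it was at least 50. The eIF3a-only counts, by the lower of the eIF3a folds, were 103 (12.9%) and 0.

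Peak bases lay mostly in coding sequence in both sets. On METTL16-only genes, coding sequence held 72.7% and 77.9% of peak bases in METTL16 replicates 1 and 2, against 49.1% of the bases of their transcripts. On eIF3a-only genes it held 66.0% and 82.7% of peak bases in the eIF3a lists, against 46.8% of the transcript bases. The sets overlapped in this share. The 5′ untranslated region held 10.5% and 7.70% of METTL16 peak bases on METTL16-only genes, more than the 4.10% and 3.41% of eIF3a peak bases on eIF3a-only genes. It made up 5.93% and 4.20% of the transcript bases of the sets.

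The eIF3b lists, which did not enter the choice of genes, divided the sets by replicate. eIF3b replicate 1 had a peak on 329 of 452 METTL16-only genes (72.8%, 95% Wilson interval 68.5 to 76.7) and eIF3b replicate 2 on 186 (41.2%, 36.7 to 45.7). For the 798 eIF3a-only genes replicate 2 had the higher share, with 535 in replicate 1 (67.0%, 63.7 to 70.2) and 587 in replicate 2 (73.6%, 70.4 to 76.5). Genes with any peak stood at 74.8% and 71.0%. The share in replicate 1 minus that in replicate 2 was 31.6 percentage points on METTL16-only genes, and 17 without eIF3a replicate 1 and 20.3 without METTL16 replicate 1. On eIF3a-only genes it was −6.52 points, but −1.34 without eIF3a replicate 1, −3.60 without METTL16 replicate 2, −2.04 with 4-fold peaks, −17.4 with 5000 peaks per list and −21.7 with lists of equal size. Of the METTL16-only genes, 168 were in eIF3b replicate 1 without replicate 2 and 25 the reverse, and of the eIF3a-only genes 89 and 141. A peak in neither eIF3b list was seen for 98 METTL16-only and 122 eIF3a-only genes. As eIF3b is a partner of eIF3a, the lower share of METTL16-only genes was seen in 1 of its replicates and not in the other.

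**Figure D3:**
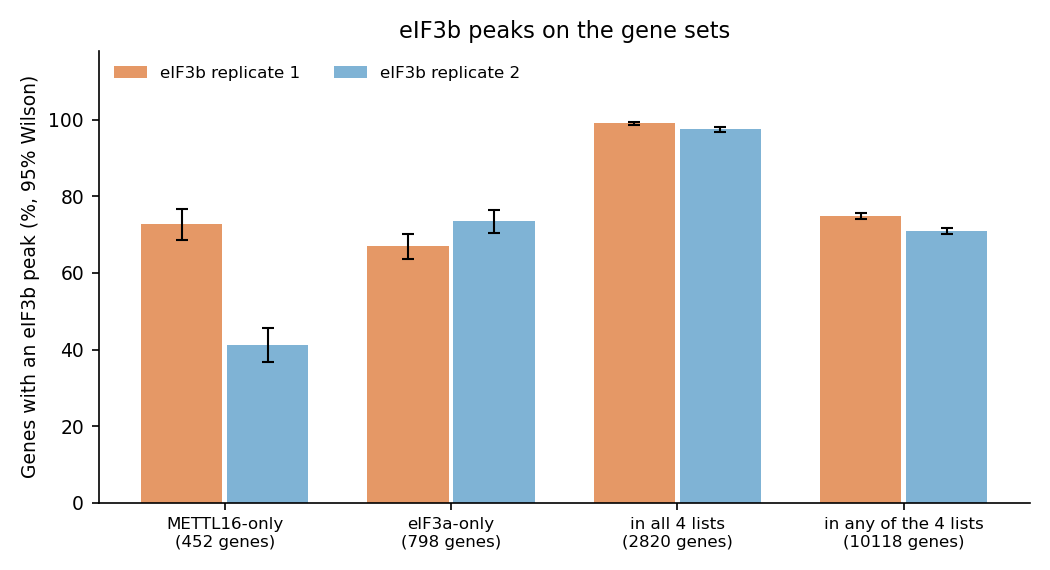
Share of genes with a peak in eIF3b replicate 1 (orange) and replicate 2 (blue), in percent with 95% Wilson intervals, for each gene set. METTL16-only genes stand at 72.8% and 41.2%, eIF3a-only genes at 67.0% and 73.6%, and genes in all 4 lists at 99.0% and 97.5%.

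Named genes were taken by the ranks of their peaks within the lists and by fold enrichment over input, here the highest of a gene's peaks in a list. Of the METTL16-only genes taken by rank, 4 of the lower ranks are described first. EIF1 (chr17:41688885-41692668, plus strand), the factor that guards start codon choice, had peaks over 297 and 826 bases in METTL16 replicates 1 and 2, at 3.15- and 3.4-fold. Its eIF3b peaks covered 148 and 119 bases at 1.49- and 1.43-fold. ACTG1 (chr17:81509413-81523847, minus strand), cytoplasmic gamma actin, had 477 and 1161 METTL16 peak bases at 2.17- and 4.17-fold. All its eIF3b peak bases, 358, were in replicate 1. OAZ1, the antizyme that switches off polyamine synthesis, had 324 and 736 METTL16 bases at 1.77- and 2.57-fold. EEF1A1 stood at 91 and 239 bases and 1.15- and 1.84-fold, the lowest of the genes taken by rank. ACTG1 has many processed copies in the genome, as does EEF1A1, so that its values are uncertain.

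The METTL16-only genes taken by rank ranged widely in enrichment. AHSG, the liver plasma glycoprotein fetuin-A, had 239 and 861 METTL16 bases at 1.39- and 1.87-fold. UBE2L6, the conjugating enzyme for the ubiquitin-like ISG15, had 420 bases in each METTL16 list at 6.27- and 13.9-fold, and 270 bases at 2.46-fold in eIF3b replicate 1. RSAD2 (chr2:6865557-6898239, plus strand), the antiviral radical SAM enzyme viperin, had 747 and 658 METTL16 bases at 223- and 565-fold. It also had 716 bases in eIF3b replicate 1 at 121-fold. The METTL16 and eIF3b replicate 1 values of RSAD2 were all over 100-fold, and the other 3 lists held no peak.

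Several METTL16-only genes, which lack an eIF3a peak by definition, had very high METTL16 enrichment. JTB and PLD2 ranked above the METTL16-only genes given before them. JTB, a membrane protein gene, had 179 and 594 bases at 62.0- and 223-fold. PLD2, a phospholipase that makes phosphatidic acid, had 180 and 450 bases at 83.9- and 289-fold. SLC4A1 (chr17:44248390-44268141, minus strand), the anion exchanger of the red cell membrane, had 1582 and 1522 bases at 224- and 243-fold. Its eIF3b replicate 1 peaks covered 1284 bases at 71.4-fold. LINGO1 had 240 and 150 bases at 181- and 174-fold. NHLH2, a basic helix-loop-helix transcription factor gene, had 180 and 240 bases at 95.4- and 226-fold. ARTN, a ligand of the GDNF family, had 180 bases in each list at 74.2- and 229-fold. Of the 12 METTL16-only genes at 50-fold or more in both METTL16 lists, 9 had a peak in eIF3b replicate 1 and 0 in eIF3b replicate 2. Over all 452 METTL16-only genes the shares were 72.8% and 41.2%. The count in replicate 1 was thus near the share of the whole set, and the 0 in replicate 2 rests on 12 genes.

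The eIF3a-only genes ranked highest were of other kinds, and each had peaks in both eIF3b lists. Of all 798 eIF3a-only genes, 446 (55.9%) had peaks in both. ZNF207 (chr17:32350132-32381885, plus strand), a microtubule-binding zinc finger protein of the spindle, had 656 and 1190 bases in eIF3a replicates 1 and 2 at 2.42- and 2.50-fold. IL17RB, an interleukin-17 family receptor, had 1232 and 722 bases at 2.98- and 3.63-fold. CEP95, a centrosomal protein gene, had 1674 and 1524 bases at 5.64- and 3.09-fold. ORC2, a subunit of the origin recognition complex, had 958 and 629 bases at 4.16- and 2.54-fold. These genes had moderate enrichment in both eIF3a lists, at no more than 6-fold.

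TIA1 (chr2:70209444-70248660, minus strand), an RNA-binding protein of stress granules, had 1502 and 1081 eIF3a bases at 9.09- and 2.47-fold. VPS13A, a lipid transfer protein with a transcript of 15227 bases, had 4417 and 1568 bases at 3.52- and 2.95-fold. ACSM3, a mitochondrial acyl-CoA synthetase, had 1571 and 1215 bases at 5.38- and 3.12-fold. STRN3, a striatin subunit of a protein phosphatase complex, had 933 and 661 bases at 2.44- and 1.61-fold. DENND4A had 1055 and 1829 bases at 4.52- and 3.98-fold, and NFXL1 1496 and 1163 bases at 4.02- and 4.99-fold. The transcripts of all 6 were 36.5% to 42.2% GC.

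The most enriched eIF3a-only genes were richer in GC. PDE4C, a cyclic AMP phosphodiesterase, had 991 and 1437 bases at 34.7- and 33.0-fold. CCDC180 had 965 and 1623 bases at 27.3- and 92.6-fold. ERN2, the intestinal form of the endoplasmic reticulum stress sensor IRE1, had 453 and 1377 bases at 27.3- and 29.4-fold. JAKMIP3 had 332 and 573 bases at 37.2- and 29.4-fold. AGAP5, with 42.2- and 69.8-fold, AGAP9, with 52.1- and 28.4-fold, and PILRB, with 8.34- and 10.9-fold, belong to families of near-identical copies and are uncertain. The transcripts of PDE4C, CCDC180, ERN2 and JAKMIP3 were 50.4% to 60.7% GC, above the eIF3a-only median.

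**Figure D4:**
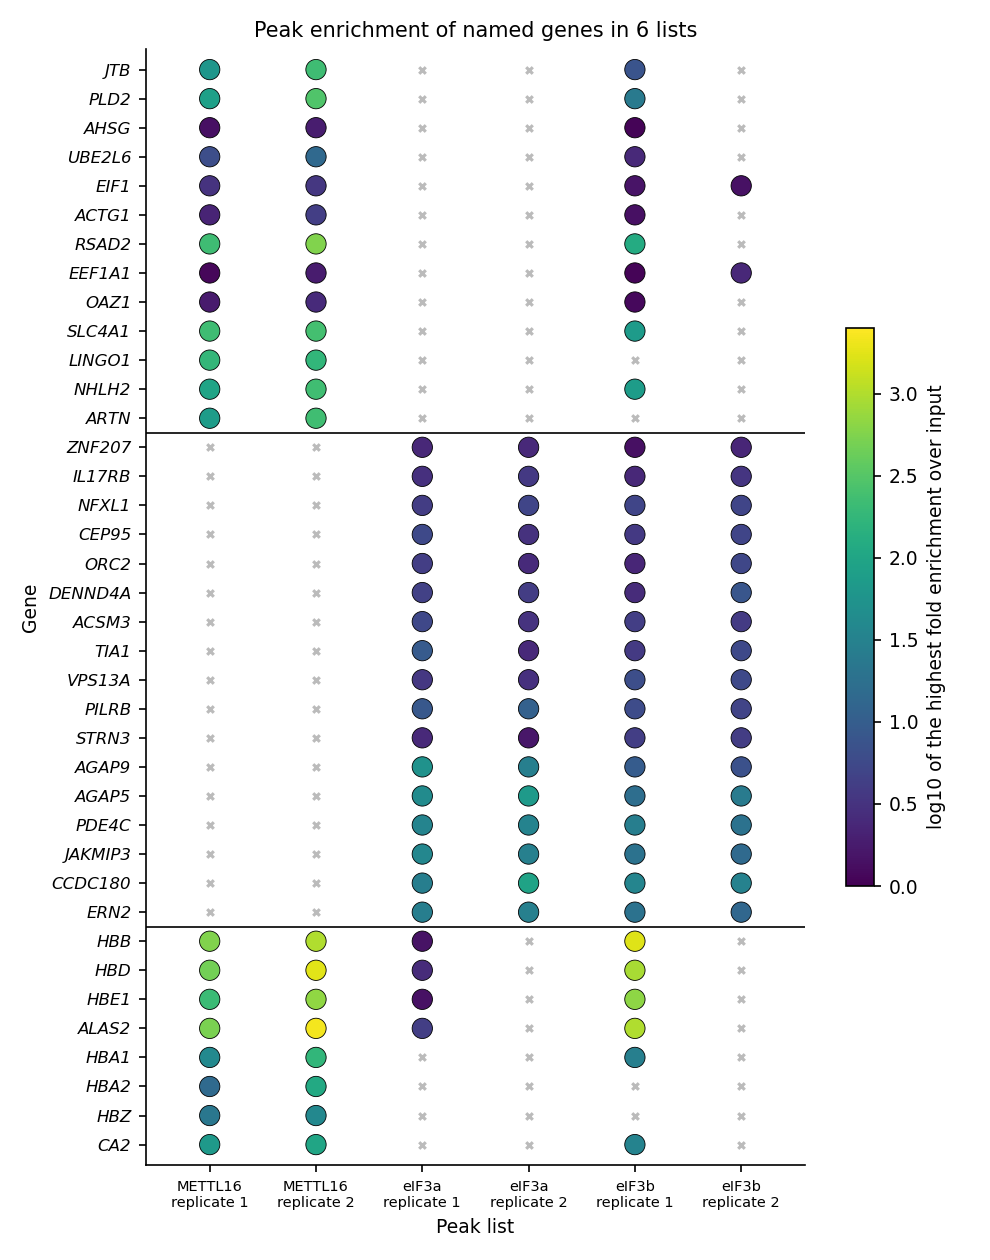
Highest fold enrichment over input, as log10 by colour, for named genes (rows) in the 6 peak lists (columns), with METTL16-only genes on top, eIF3a-only genes in the middle and red cell genes at the foot. Grey crosses mark lists with no peak. The eIF3a-only genes shown are filled in both eIF3b columns. Most METTL16-only and red cell genes shown are filled in eIF3b replicate 1 and empty in eIF3b replicate 2. Over the whole sets, 446 of 798 eIF3a-only genes (55.9%) were in both eIF3b lists. Of 452 METTL16-only genes, 168 (37.2%) were in eIF3b replicate 1 without replicate 2.

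SLC4A1 was not the single red cell gene in the METTL16 lists, and globin genes were looked up after its value had been seen. HBB, the adult beta globin and the one red cell gene among the fixed blood markers, had 418 bases in each METTL16 list at 576- and 986-fold. In eIF3a replicate 1 the same number of bases was covered at 1.47-fold, and eIF3a replicate 2 had no peak. In eIF3b replicate 1 HBB reached 1700-fold over 507 bases, and in eIF3b replicate 2 it had no peak. ALAS2, the first enzyme of heme synthesis in red cells, stood at 526- and 2170-fold in the METTL16 lists, 4.13-fold in eIF3a replicate 1 and 975-fold in eIF3b replicate 1. HBD and HBE1 had the same pattern, at 474- and 1770-fold and at 208- and 675-fold in the METTL16 lists. HBA1, HBA2, HBZ, CA2 and SLC4A1 were METTL16-only genes. The alpha globin genes HBA1 and HBA2 code for the same protein and share reads.

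Of 23 red cell genes looked up, 10 and 13 had a peak in METTL16 replicates 1 and 2. In eIF3a replicates 1 and 2 there were 6 and 0, and in eIF3b replicates 1 and 2, 7 and 0. Over all genes, the METTL16 lists held 5829 and 6337, the eIF3a lists 8166 and 5226, and the eIF3b lists 8063 and 7570. The master regulators GATA1 and KLF1 and the fetal globins HBG1 and HBG2 were among the 10 red cell genes with no peak in any list. Of the fixed blood markers, PTPRC, the leukocyte phosphatase, had a peak in METTL16 replicate 1 and in no other list, and CD3E of T cells had no peak in any list. Of 4 fibroblast and endothelial markers, COL1A1 and COL1A2 had no peak in any list, and VWF, the endothelial clotting protein, had METTL16 peaks at 35.8- and 33.4-fold, an eIF3a peak at 11.2-fold in replicate 1 and eIF3b peaks at 20.6- and 13.2-fold. PECAM1, an endothelial adhesion protein, had no METTL16 peak, eIF3a peaks at 2.70- and 3.16-fold and eIF3b peaks at 3.24- and 4.12-fold. Where these RNAs came from was not tested. Without red cell and ribosomal protein genes, the sets differed in median GC by 13.8 percentage points, against 13.7 with them.

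Hepatocyte markers had peaks in both pull-downs. HNF4A, a transcription factor that holds the liver programme, and SERPINA1, the liver antitrypsin gene, had peaks in all 4 lists. Of 10 hepatocyte markers, 7 and 9 had a peak with METTL16, replicate 1 first, and 6 and 3 with eIF3a. Over all genes, these lists held 5829 and 6337 for METTL16 and 8166 and 5226 for eIF3a. ALB, albumin, had a peak in METTL16 replicate 2 alone, at 2.75-fold, and TTR in no list.

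Lists of genes by function were then counted in each set, by symbol and in the same way for all lists. They are set beside the 4.47% of METTL16-only and 7.89% of eIF3a-only genes among all genes with a peak. The lists were written with earlier results of these data known, so no test was made on them. Their intervals cover counting error over genes, which are not replicates of a pull-down. The lists with the highest METTL16-only shares were families of short transcripts. Of 33 histone genes with a peak, 6 were METTL16-only (18.2%, 95% Wilson interval 8.61 to 34.4) and 0 eIF3a-only. Of 53 cytosolic ribosomal protein genes, 7 were METTL16-only (13.2%, 6.55 to 24.8) and 1 was eIF3a-only. Of 49 mitochondrial ribosomal protein genes the counts were 7 (14.3%, 7.10 to 26.7) and 3. The median transcript was 542 bases in the histone list, 1017 in the cytosolic and 1260 in the mitochondrial ribosomal protein list. These intervals are wide. In single lists, METTL16 replicates 1 and 2 had peaks on 60.6% and 87.9% of the histone genes, and eIF3a replicates 1 and 2 on 57.6% and 9.09%. For cytosolic ribosomal protein genes these shares were 66.0%, 71.7%, 54.7% and 15.1%, and for mitochondrial ones 42.9%, 77.6%, 46.9% and 24.5%. So eIF3a replicate 1 was near METTL16 replicate 1 for histones and mitochondrial ribosomal proteins, and eIF3a replicate 2 was lowest in all 3 lists.

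Of 73 ribosome biogenesis genes, 2 were METTL16-only and 2 eIF3a-only. Of 31 aminoacyl-tRNA synthetase genes, 3 were METTL16-only (9.68%, 3.35 to 24.9) and 1 was eIF3a-only, and of 12 elongation and release factor genes 1 each. Of 49 translation initiation factor genes, 5 were METTL16-only (10.2%, 4.44 to 21.8) and 0 were eIF3a-only. They were EIF1, EIF3D (the cap-binding subunit of eIF3), EIF4A2 (an RNA helicase that unwinds 5′ leaders), EIF5AL1 (a copy related to EIF5A) and EIF6 (a factor that keeps ribosomal subunits apart). The intervals of the synthetases and of the initiation factors include the 4.47% of all genes. EIF3D had 241 and 272 METTL16 bases at 1.91- and 1.75-fold, and peaks of 1.55- and 1.39-fold in the eIF3b lists. EIF6 had 60 and 622 METTL16 bases at 1.25- and 2.28-fold. A further 17 initiation factor genes were in all 4 lists (34.7%, 22.9 to 48.7). That interval includes the 27.9% of all genes with a peak.

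Proteasome genes were METTL16-only in 5 of 36 cases (13.9%, 6.08 to 28.7) and eIF3a-only in 0. In single lists, 58.3% and 88.9% of the proteasome genes had a METTL16 peak, replicate 1 first, and 63.9% and 19.4% an eIF3a peak. PSMD4, a ubiquitin receptor of the proteasome, had 208 and 267 METTL16 bases at 2.71- and 3.52-fold. The others were PSMB1, PSMB3, PSMC5 and PSME1, with folds from 1.17 to 2.16. Of 58 chaperone genes, in a list narrowed after a first run, 6 were METTL16-only (10.3%, 4.83 to 20.8). Chaperone genes were eIF3a-only in 4 cases (6.90%, 2.71 to 16.4), near the 7.89% of all genes. Their METTL16-only members were CCT4, CCT5 and CCT7, subunits of the ring that folds actin and tubulin, HSPD1, the mitochondrial chaperonin, and the DnaJ genes DNAJC19 and DNAJC30. The eIF3a-only members were also DnaJ genes, DNAJB14, DNAJC3, DNAJC13 and DNAJC16.

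Liver secreted plasma proteins were METTL16-only in 5 of 41 cases (12.2%, 5.32 to 25.5), namely A2M, AFP, AHSG, TF and VTN, and eIF3a-only in 1, the clotting factor gene F11. AFP, the fetal albumin homologue and a liver cancer marker, had 151 and 601 METTL16 bases at 1.37- and 1.80-fold and no eIF3b peak. VTN, vitronectin, had 211 and 360 bases at 1.44- and 1.56-fold. F11 had 597 and 91 eIF3a bases at 4.01- and 2.11-fold.

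The highest eIF3a-only shares were those of centrosomal CEP genes, DNA repair genes, ubiquitin-specific proteases and zinc finger transcription factors. Their median transcripts were 5629, 4008, 5448 and 4080 bases long, against 3535 for all genes with a peak. Length did not order all lists. Chromatin modifiers and remodellers, with a median of 5948 bases, were eIF3a-only in 5.10% of cases (2.20 to 11.4). Of 31 centrosomal CEP genes, 8 were eIF3a-only (25.8%, 13.7 to 43.3) and 0 METTL16-only. CEP295, which elongates centrioles, had the most bases among them, 2403 and 4699 in the eIF3a lists at 24.8- and 94.2-fold, with 571 and 1413 bases in the eIF3b lists. Of 44 kinesin and dynein genes, the motors that walk on microtubules, 6 were eIF3a-only (13.6%, 6.40 to 26.7) and 0 METTL16-only, an interval that includes the 7.89% of all genes. KIF11, KIF14 and KIF15, motors of the mitotic spindle, were among the 6.

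DNA repair genes were eIF3a-only in 9 of 41 cases (22.0%, 12 to 36.7) and METTL16-only in 1. BRCA1, the homologous recombination protein, had 181 and 539 eIF3a bases at 2.91- and 3.16-fold. BRIP1, its helicase partner, had 240 and 1258 bases at 2.98- and 10.4-fold. FANCD2 and FANCL of the Fanconi anaemia pathway, MLH3 and PMS1 of mismatch repair, and RAD18, RAD51B and RAD52 were the rest. XRCC5, the Ku80 subunit of end joining, was the METTL16-only gene, with 302 and 567 bases at 39.7- and 2.92-fold.

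Ubiquitin-specific proteases, which take ubiquitin off proteins, were eIF3a-only in 9 of 42 cases (21.4%, 11.7 to 35.9) and METTL16-only in 0. USP37, with 61 and 1203 bases at 3.24- and 5.58-fold, and USP40, with 1231 and 180 bases at 5.11- and 2.20-fold, show how far the eIF3a replicates could differ on a gene.

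Zinc finger transcription factors were the largest family, with 364 genes with a peak. Of these, 55 were eIF3a-only (15.1%, 11.8 to 19.2) and 7 METTL16-only (1.92%, 0.935 to 3.92), on the far side of both shares of all genes. Their median transcript was 4080 bases long and 44% GC. ZNF407 had 2467 and 1624 eIF3a bases at 6.02- and 13.5-fold, and ZNF81 512 and 541 bases at 22.3- and 35.2-fold. The transcripts of the METTL16-only members ranged from 42.6% GC in ZNF627 to 64.8% in ZNF784. Many zinc finger genes are close relatives, and reads may have been shared among them. Homeobox factors went the other way, with 3 of 46 METTL16-only (CUX2, RAX and TLX1) and 0 eIF3a-only, an interval of 2.24 to 17.5% that includes the 4.47% of all genes.

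**Figure D5:**
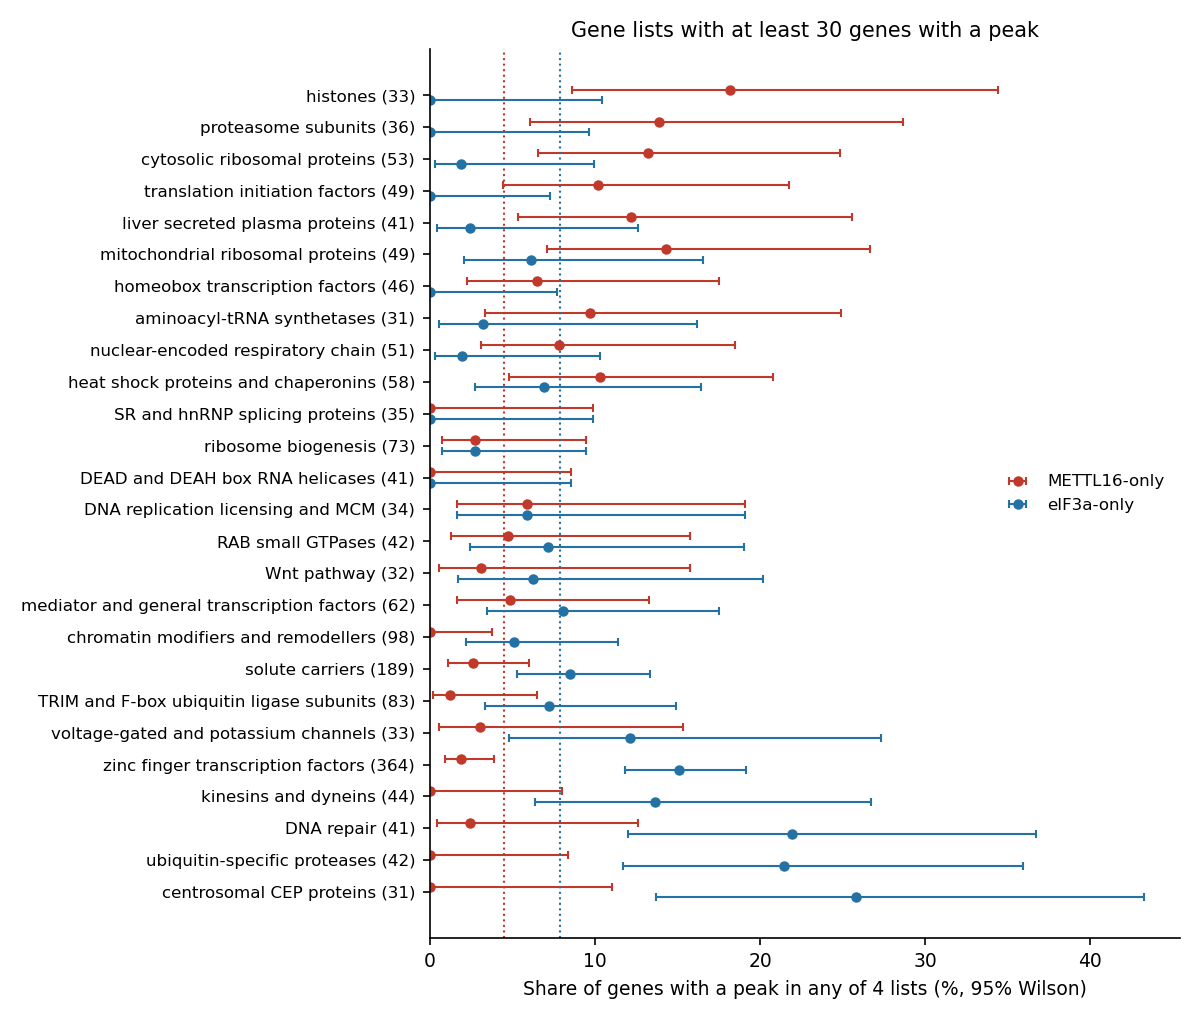
Share of METTL16-only (red) and eIF3a-only (blue) genes, in percent with 95% Wilson intervals, among the genes with a peak in any of the 4 lists, for gene lists with at least 30 such genes (number in brackets). Dotted lines mark the 4.47% and 7.89% of all genes with a peak. Histones, ribosomal proteins and proteasome subunits lie at the METTL16-only end, and CEP proteins, ubiquitin-specific proteases and zinc fingers at the eIF3a-only end.

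A count of 0 in these small families mostly lay within counting error of the share of all genes. Among the families described here, the upper limit of such a count fell below that share for 3, namely eIF3a-only initiation factors (7.27%), eIF3a-only homeobox factors (7.71%) and METTL16-only chromatin modifiers and remodellers (3.77%).

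Some families had few or no genes in the sets. Of 41 DEAD and DEAH box helicase genes and 35 SR and hnRNP splicing genes, 0 were in either set. The upper limits of these counts, 8.57% and 9.89%, include both shares of all genes. In all 4 lists were 18 (43.9%, 29.9 to 59.0) and 15 (42.9%, 28.0 to 59.1), against 27.9% of all genes with a peak. Of 98 chromatin modifiers and remodellers, 60 were in all 4 lists (61.2% against 27.9% of all genes with a peak), 5 were eIF3a-only and 0 METTL16-only. Of 21 m6A genes, 11 were in all 4 lists (52.4%, 32.4 to 71.7). PCIF1, which methylates the cap-adjacent adenosine, was METTL16-only, with 363 and 691 bases at 2.53- and 3.21-fold. YTHDF2, the reader that brings methylated mRNAs to decay, was eIF3a-only, with 211 and 1369 bases at 1.80- and 3.95-fold. Among 10 liver cancer stem cell marker genes with a peak, EPCAM, a cell surface adhesion protein, was METTL16-only at 2.80- and 3.43-fold.

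On the 2820 genes with peaks in all 4 lists, the amount of peak sequence was compared, a measure that the choice of sets did not use. Summed peak bases per gene were taken as log2 and centred on the median of each list, since the METTL16 lists had lower medians (572 and 512 bases) than the eIF3a lists (868 and 631). With limma and Benjamini-Hochberg adjustment, 0 genes had more METTL16 bases and 0 had more eIF3a bases at an adjusted p under 0.05 (0% each). The smallest adjusted p was 0.19 (limma), and 208 and 217 genes had an unadjusted p under 0.05. The median size of the log2 difference was 0.83 and its median standard error 0.73. The outcome depended on the lists. Without eIF3a replicate 1, 77 genes were higher for METTL16 and 66 for eIF3a, and without METTL16 replicate 1 the counts were 0 and 11. In these fits the remaining list of a protein stood alone and was taken to vary like the other protein's lists. With the replicate number as a block, 0 genes were higher for METTL16 and 7 for eIF3a.

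The mRNAs of the proteins themselves were in all 4 lists. METTL16 had 1052 and 1263 bases in the METTL16 lists at 67.5- and 38.1-fold, against 694 and 543 bases in the eIF3a lists at 10.5- and 6.53-fold. The METTL16 values were higher, with a log2 difference of 1.36 (SE 0.65) and a limma adjusted p of 0.36. The METTL16 cells overexpressed this mRNA from a transgene. EIF3A had 2518 and 2070 METTL16 peak bases and 2578 and 2279 eIF3a peak bases, with a log2 difference of 0.37 (SE 0.65, limma adjusted p = 0.81) that turned to −0.086 without centring. The uncentred peak bases of EIF3A overlapped between the groups. MAT2A, which codes for the enzyme that makes S-adenosylmethionine, had 865 and 806 METTL16 bases and 1608 and 1370 eIF3a bases, a log2 difference of −0.38 (SE 0.65, limma adjusted p = 0.80). EIF3B had 839 and 1290 METTL16 bases and 630 and 120 eIF3a bases, a log2 difference of 2.37 (SE 0.83, limma adjusted p = 0.26). With a list left out, the EIF3B difference ranged from 1.14 without eIF3a replicate 2 to 3.33 without eIF3a replicate 1.

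Base composition also ordered the differences on shared genes, as a description across genes. The median centred log2 difference in peak bases, METTL16 minus eIF3a, was −0.34 for 220 genes under 40% GC and 0.57 for 687 genes over 60%. In the latter class it was above 0 in each of the 4 pairs of lists, from 0.38 to 0.82. In the former it lay between −0.75 and 0.10. Across 2814 genes, the correlation of the difference with transcript GC was r = 0.16 to 0.40 over the 4 pairs of METTL16 and eIF3a lists, which share libraries with each other. Replicates of a protein also differed along GC, with r = −0.31 between METTL16 replicates 1 and 2, 0.44 between the eIF3b replicates and 0.03 between the eIF3a replicates. The values between proteins lay below the one between the replicates of eIF3b.

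Within shared genes, the proteins covered bases of different composition. Bases under a peak in both METTL16 lists and in no eIF3a list were found on 1355 genes and numbered 232535. Bases with the reverse pattern were found on 1668 genes and numbered 542951. In 467 genes with at least 50 bases of each kind, the METTL16 bases had a median GC of 65.6% and the eIF3a bases 53.5%. The difference within a gene had a median of 10.4 percentage points (quartiles 3.33 and 21.1), and METTL16 was higher in 395 of the 467 genes (84.6%). Of the METTL16 bases, 12.6% lay in the 5′ untranslated region and 16.5% in the 3′ untranslated region, and of the eIF3a bases 1.62% and 38.6%. So the contrast between the sets of genes, with GC-rich sequence on the METTL16 side, was also found between places on the same transcripts. Both rest on the same 4 lists and are not independent of each other.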

How the data were processed

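RIP-seq peak lists of METTL16 and eIF3a (2 HepG2 samples each) were analysed, with those of eIF3b as a further readout. Reads had been aligned by the authors with STAR (GRCh38), and enriched regions against input found by exomePeak on its defaults. Versions, annotation and whether inputs were pooled were not given in the sources used here. For each peak the authors deposited exonic blocks, a gene name, a p-value, log10 of the p-value and of its adjusted value (a score here), and the fold enrichment, a ratio of RIP over input. The files hold no counts, so depth is unknown. Control-antibody lists were not used here.

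Peak bases were summed per gene name after merging overlapping blocks. Of the 10118 names, 9637 matched a GENCODE release 44 symbol, 432 an older symbol and 49 none. Length and GC are those of the canonical transcript. Sequences were read from GRCh38 with samtools 1.23.1, none from chromosome 8. Shared genes were tested with limma 3.58.1 in R 4.3.3 on log2 summed bases, lists as samples and no covariate, with Benjamini-Hochberg adjustment. The script was tested on simulated data. Intervals are 95% Wilson intervals. Replicate numbers did not pair samples (deviations of equal-numbered lists correlated at −0.0054), and nothing but the study's word shows separate cultures, so p-values measure the spread between these samples.

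Named genes were, per set, the 12 best by the worse rank of their p-values in the lists of the protein and the 6 with the largest lower fold, plus METTL16, EIF3A, EIF3B and MAT2A. Genes within functional lists were named after their values were seen. The 36 functional lists are symbol rules, of which 4 (RAB, elongation, heat shock, ribosome biogenesis) were narrowed after a first run. The sets, lists and tests were chosen with earlier results of these data known. Single ribosomal protein genes are not reported here. Alternatives were peaks of at least 4-fold enrichment, the 5000 best peaks per list, each list left out, other transcript models, absence judged by exon position, genes with an eIF3b peak, and for the fit no centring, a replicate block, eIF3b lists, genes in 2 or more lists with 100 bases added, a variance trend and the longest peak. Lists cut to the same number of genes, and sets without red cell and ribosomal protein genes, were added after seeing the data.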

Additional observations from a re-analysis of the deposited data

How the results depend on the processing

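The METTL16-only genes were shorter and richer in GC than the eIF3a-only genes under each alternative for which length or GC was computed. The GC difference of the medians was 12.9 percentage points with peaks of at least 4-fold enrichment, 12.3 with 5000 peaks per list and 13.2 with lists cut to the same 5226 genes. The log2 length ratio was −0.64 with 4-fold peaks and −0.99 with the longest transcript and with the union of exons. The order of the set sizes was less firm. eIF3a-only genes numbered 441 with 4-fold peaks and 351 with 5000 peaks, below the 553 and 502 METTL16-only genes. The eIF3b replicate 1 minus replicate 2 share on eIF3a-only genes was −2.04 percentage points with 4-fold peaks, −17.4 with 5000 peaks and −21.7 with lists of equal size. The coding share of METTL16-only peak bases was 68.7% with 4-fold peaks. Causes were not tested.

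Leaving out a list each in turn gave 532 to 1712 METTL16-only genes, 1167 to 2165 eIF3a-only genes, GC differences of 11.05 to 12.8 percentage points and log2 length ratios of −1.30 to −0.83. The eIF3b difference ranged from 17 to 29.6 percentage points on METTL16-only and from −6.79 to −1.34 on eIF3a-only genes. Coding shares ranged from 71.2% to 79.6% and from 62.3% to 83.05%. Genes with more METTL16 bases in the fit numbered 0 to 77 and genes with more eIF3a bases 0 to 66, with 77 and 66 without eIF3a replicate 1 and 0 and 11 without METTL16 replicate 1. A replicate block gave 0 and 7. Without centring, the EIF3A difference turned to −0.086. Of 129 alternative values, 95 were labelled the same as the main value, 32 moved, 1 stronger and 1 reversed. The reversed value was the EIF3A difference without centring. Counts of genes and coding shares cannot be negative, so for them a change of direction was not possible. Unknown depth limits what the absence of a peak can show.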
